A study of Mus musculus with 6 samples.

Results

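Of the 3 arrays of aged mouse kidney, 2 had low signals of 7 miRNAs that were not low on the third. They were mmu-miR-3082-5p, mmu-miR-1187, mmu-miR-468-3p, mmu-miR-1196-5p, mmu-miR-32-3p, mmu-miR-672-5p and mmu-miR-6348, named here without the prefix for mouse from now on. The set made up 7 of 1247 mouse miRNAs on the array and 7 of the 193 that could be tested, and all 7 were tested. The entries were found by their names in the array files. Their choice rested on the measured values themselves. Each had a signal 2-fold or more below the mean of the young arrays on aged arrays 2 and 3. On aged array 1 each was less than 2-fold below it. This rule alone does not give the set, since 11 of the 193 tested miRNAs met it, and the others are named below. Values that follow from this choice are given as a description, without a test.

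Kidney RNA came from male C57BL/6 mice, a standard inbred strain, at 20 months of age (aged, 3 arrays) and at 2 months of age (young, 3 arrays). No treatment or genetic change is named in the labels. Total RNA with its small RNAs was labelled with the dye Cy3 and hybridised to 1-colour arrays, 1 preparation to each array. Which animal a preparation came from is not labelled, and the spread between arrays may be partly technical. In whole-tissue RNA, fewer cells of a type and less RNA per cell cannot be told apart.

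A miRNA is a short RNA cut from a hairpin precursor. It guides Argonaute proteins to messenger RNAs, mainly by pairing of its seed (bases 2 to 8), and lowers their translation and stability. Each hairpin can give a 5p arm and a 3p arm, of which 1 is usually the more abundant. miR-32-3p is the 3p arm of the miR-32 hairpin, whose 5p arm has the seed of the miR-25 and miR-92 family. miR-1187 has been reported to repress caspase-8 in mouse hepatocytes, and miR-672-5p to promote differentiation of mouse osteoblasts.

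RefSeq held the mature sequence of 5 of the 7 miRNAs (build GRCm38.p6), and miR-1196-5p and miR-468-3p were not matched. The 5 are shown first with the seed in capitals, since the seed decides which messenger RNAs a miRNA can pair with.
miR-1187: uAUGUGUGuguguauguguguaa
miR-3082-5p: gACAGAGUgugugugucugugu
miR-32-3p: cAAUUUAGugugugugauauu
miR-6348: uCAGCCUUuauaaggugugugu
miR-672-5p: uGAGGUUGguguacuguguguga

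The 5 seeds were all different (5 of 5), so the miRNAs form no seed family. Their hairpins lay on 5 different chromosomes. Mir1187 is at chr5:82798944-82799065 (minus strand) and overlapped no annotated gene. Mir3082 at chr17:25831365-25831428 (minus strand) overlapped Jmjd8 and Stub1. Mir32 at chr4:56895229-56895298 (minus strand) lay within the bounds of Tmem245, and Mir672 at chrX:104116175-104116274 (minus strand) within those of Nexmif. Mir6348 at chr1:168490643-168490762 (plus strand) overlapped the non-coding gene Gm39696.

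What the 5 sequences shared was a stretch of alternating G and U, shown in capitals in the same sequences. miR-574-5p and miR-669n, which were not among the 7 but held such a stretch too, are added for comparison.
miR-1187: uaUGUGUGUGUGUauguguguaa
miR-3082-5p: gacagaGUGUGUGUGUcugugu
miR-32-3p: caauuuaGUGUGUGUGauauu
miR-6348: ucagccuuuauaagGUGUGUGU
miR-672-5p: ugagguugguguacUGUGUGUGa
miR-574-5p: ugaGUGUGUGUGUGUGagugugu
miR-669n: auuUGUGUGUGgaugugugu

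The longest stretch was 11 bases in miR-1187, 10 in miR-3082-5p, 9 in miR-32-3p and 8 in both miR-6348 and miR-672-5p. It began at base 3 in miR-1187 and at base 15 in miR-6348 and miR-672-5p, so its place along the miRNA varied. The motif GUGUGU (read on the miRNA strand, overlapping matches counted once) was in 5 of the 5 sequences. It was held by 17 of the 1679 mature miRNA names listed by RefSeq (1.01%). It was in 15 of the 1017 array entries with a sequence (1.47%) and in 7 of the 155 tested entries with a sequence (4.52%). The share of G and U together was 68.2 to 82.6% in the 5 miRNAs (median 77.3%). In the 150 other tested miRNAs with a sequence it was 19.0 to 91.3% (median 52.4%). Of these 150, 13 were at or above the median of the 5.

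Spot intensities had been corrected for background by the scanner software. For comparison between arrays they were averaged per probe and scaled by the 75th percentile of the 315 probes detected on all 6 arrays, taken array by array. The scaled values were summed over the probes of a miRNA and put on a log2 scale. Values under a floor of -5.22 were set to it. A probe was called well above background if the scanner software had marked more than 50% of the spots kept. Each of the 7 miRNAs was read by 2 probes, or 4 for miR-468-3p, with 40 spots in all. On the log2 scale 0 is the 75th percentile itself, so negative values are dimmer than it. Levels of different miRNAs are not compared here, because probes differ in their binding.

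The arrays differed in position. The 3 young arrays and aged array 1 lay in slide row 1, and aged arrays 2 and 3 in row 2, according to the file headers. All were scanned together. Row 2 held no young array, so row and age cannot be told apart there. The 75th percentile was 1171, 2054 and 1284 intensity units on aged arrays 1 to 3, against 1191 to 1415 on the young arrays. The number of miRNAs well above background was 201, 206 and 177 on the aged arrays, against 193 to 209 on the young. The number of arrays limits the precision. Over the 193 tested miRNAs, aged array 1 correlated at 0.991 to 0.993 with the young arrays and at 0.972 and 0.983 with the other aged arrays.

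Of 7 kidney-enriched miRNAs (such as miR-192-5p and miR-10b-5p), 6 were well above background on all arrays, and their summed scaled signal was 18.3 to 21.0 on aged arrays against 17.6 to 20.2 on young arrays. The sum of 3 erythroid miRNAs was 7.14, 6.82 and 6.34 on aged arrays 1 to 3, against 8.32 to 9.34 on young arrays. For 5 leukocyte miRNAs it was 0.945, 0.869 and 0.754, against 0.592 to 0.681. Of 3 muscle miRNAs none was well above background on all arrays and 2 were on no array, with a sum of 0.0413 to 0.0584 on aged arrays against 0.0508 to 0.0731 on young arrays. The liver miRNA miR-122-5p was well above background on no array. Of 2 neuronal miRNAs 1 was on none, and their sum was 0.0748 to 0.0800 on aged arrays against 0.0107 to 0.0151 on young arrays. The part of these cell types in the result was not tested.

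miR-1187 and miR-3082-5p were well above background on all 6 arrays, so neither reached the floor. The unscaled intensity of miR-1187 was 577, 396 and 135 on aged arrays 1, 2 and 3, against 576, 504 and 468.5 on young arrays 1, 2 and 3. Its scaled log2 level was -1.02, -2.37 and -3.24 on the aged arrays, against -1.30, -1.25 and -1.35 on the young. Aged array 1 thus lay slightly above the young arrays, while array 2 was 2.11-fold and array 3 was 3.85-fold below their mean. On array 2 the size depended on the scaling, since the log2 difference of miR-1187 from the young mean was -1.08 here, -0.38 without scaling and -0.16 with the 75th percentile over all probes. miR-3082-5p had unscaled intensities of 925, 620 and 210 (209.7) on the aged arrays, against 885, 814 and 747 on the young. Its scaled level was -0.34, -1.73 and -2.61 on aged arrays, against -0.68, -0.56 and -0.67 on young arrays. The order was the same as for miR-1187, with array 2 at 2.13-fold and array 3 at 3.93-fold below the young mean.

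miR-1196-5p, miR-32-3p, miR-468-3p and miR-672-5p were well above background on every array except aged array 3, where each lay at the floor. A fall there is a lower bound, taken from the young mean against the highest of the floor, the lowest signal of a detected probe on that array and the miRNA's own signal. The unscaled intensity of miR-1196-5p was 277, 155 and 27.3 on aged arrays 1 to 3, against 262, 204 and 187 on the young arrays. Its scaled level was -2.08, -3.73 and -5.22 on aged arrays, against -2.43, -2.56 and -2.67 on young arrays. It was highest of all on aged array 1, 2.26-fold lower on array 2 than the young mean, and at least 5.66-fold lower on array 3.

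miR-32-3p had unscaled intensities of 156, 91.2 and 27.2 on the aged arrays, against 214, 171 and 150 (150.4) on the young arrays. Its scaled level was -2.91, -4.49 and -5.22 on aged arrays, against -2.72, -2.82 and -2.99 on young arrays. Aged array 1 fell inside the young range, while array 2 was 3.14-fold and array 3 at least 4.63-fold below the young mean. For miR-468-3p the unscaled intensity was 307, 167 and 22.1 on the aged arrays, against 382, 303 and 279 on the young. Its scaled level was -1.93, -3.62 and -5.22 on aged arrays, against -1.89, -1.99 and -2.09 on young arrays. Array 1 was inside the young range, array 2 was 3.10-fold lower than the young mean, and array 3 was at least 8.36-fold lower, the highest of the bounds.

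miR-672-5p had unscaled intensities of 93.4, 66.4 and 17.4 on the aged arrays, against 125, 91.7 and 86.5 on the young arrays. Its scaled level was -3.65, -4.95 and -5.22 on aged arrays, against -3.50, -3.71 and -3.78 on young arrays, so array 1 was again inside the young range. Array 2 was 2.44-fold and array 3 at least 2.62-fold below the young mean. miR-6348 was well above background on aged array 1 alone among the aged arrays. Its unscaled intensity was 86.0, 47.8 and 5.38 on the aged arrays, against 102, 85.6 and 75.4 on the young. Its scaled level was -3.77, -5.22 and -5.22 on aged arrays, against -3.79, -3.81 and -3.98 on young arrays. The fall was at least 2.57-fold on array 2 and at least 2.28-fold on array 3, and which of the 2 was lower cannot be read from values at the floor.

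**Figure D1:**
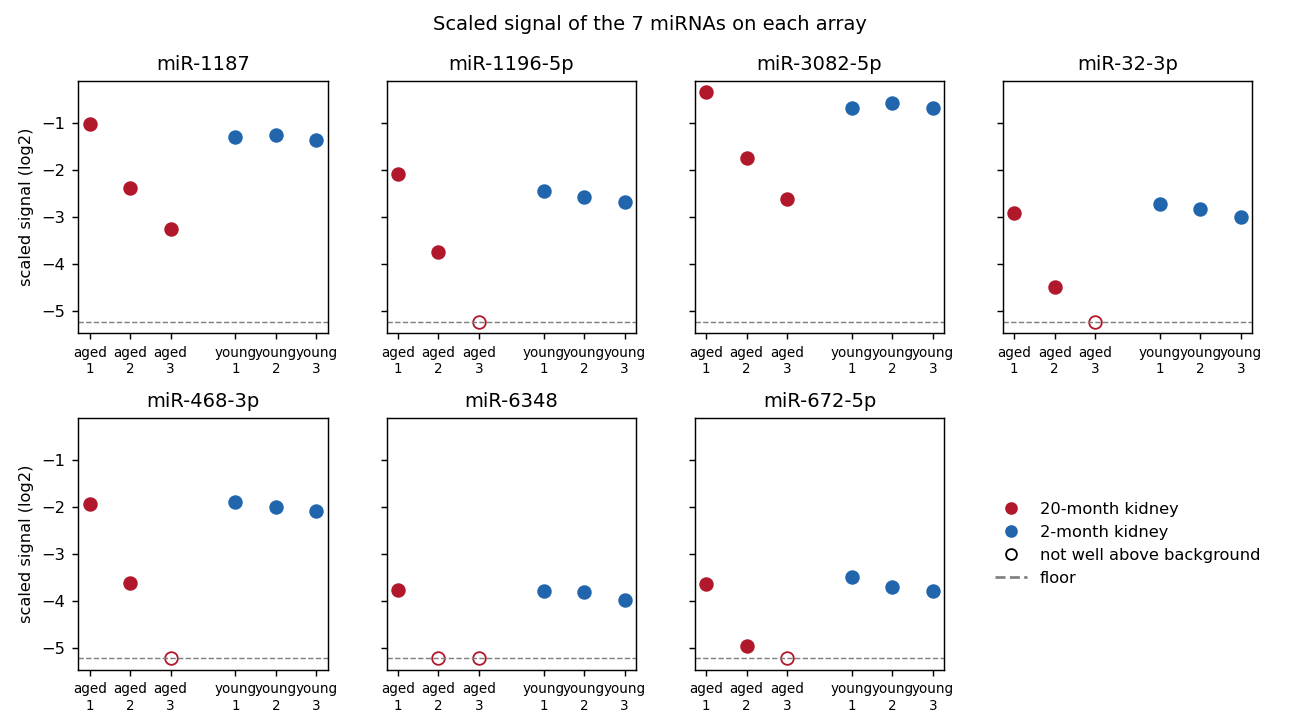
Scaled signal (log2, y axis) of each of the 7 miRNAs on the 3 arrays of 20-month (aged) and the 3 arrays of 2-month (young) kidney (x axis), with 1 point per array, open where not well above background and with the floor of -5.22 dashed. In each panel aged arrays 2 and 3 lie below the other 4 arrays, and 5 of the 7 miRNAs reach the floor on aged array 3.

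The spread within the aged group was therefore wide and that within the young group narrow. The SD over the 3 aged arrays ranged from 0.84 (miR-6348 and miR-672-5p) to 1.64 (miR-468-3p) on the log2 scale. Over the 3 young arrays it was 0.05 (miR-1187) to 0.15 (miR-672-5p). A wide aged spread follows from the choice of the 7. The floor limits the aged SD of the miRNAs that reach it, miR-6348 on both aged arrays 2 and 3, so the order of the SDs is not read. Aged array 1 lay inside the young range for 3 of the 7 miRNAs and above it for 4. Its difference from the young mean ran from -0.07 (miR-32-3p) to 0.47 (miR-1196-5p). The share of all tested miRNAs above the young range on aged array 1 is not given. Nothing is therefore read from the 4 of 7. The profile of each miRNA over the 6 arrays correlated at 0.951 to 0.995 with the mean profile of the other 6. These miRNAs share their arrays and scaling and were chosen for this shape, so the correlations only describe it.

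In row 1 the age difference rests on aged array 1, and there the 7 miRNAs stood at -0.07 to 0.47. Row 2 gives no value, having no young array. Across all arrays, fitted with limma over the 193 miRNAs, the mean difference of aged minus young ranged from -0.87 ± 0.39 for miR-6348 to -1.60 ± 0.76 for miR-468-3p (log2 ± SE, n = 3 per group). The value of miR-6348 is limited by the floor, and with a lower floor it was -1.83, against -1.82 for miR-468-3p. None of the 7 (0 of 7) had a limma adjusted p under 0.05, where 3.63% of all tested miRNAs were called lower and 4.15% higher. At an unadjusted p under 0.05, where 25.4% of all tested were found, there was 1 of 7, miR-32-3p. Without aged array 1 all 7 passed the limma threshold, where 39 of all 193 tested did. Nothing is read from these counts, as the miRNAs were chosen on this contrast.

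Over all tested miRNAs, 5.7% (11 of 193) met the rule that the 7 meet. The other 4 were miR-669n, miR-466h-5p, miR-466m-5p and miR-669e-5p. A signal 2-fold or more below the young mean was found for 1.04% of the tested miRNAs on aged array 1, for 8.81% on array 2 and for 7.77% on array 3. The median difference of all tested miRNAs from the young mean was -0.06, -0.09 and 0.00 (0.003) on aged arrays 1, 2 and 3. Most miRNAs thus did not follow the 7. Just inside the threshold on array 2 stood miR-1187 at -1.08, miR-3082-5p at -1.09 and miR-1196-5p at -1.18. Just outside stood miR-574-5p and miR-466i-5p, both at -0.95 on array 2, and next miR-455-5p, which was at -0.96, -0.76 and -0.69 on arrays 1, 2 and 3 and so was low on all of the aged arrays.

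**Figure D2:**
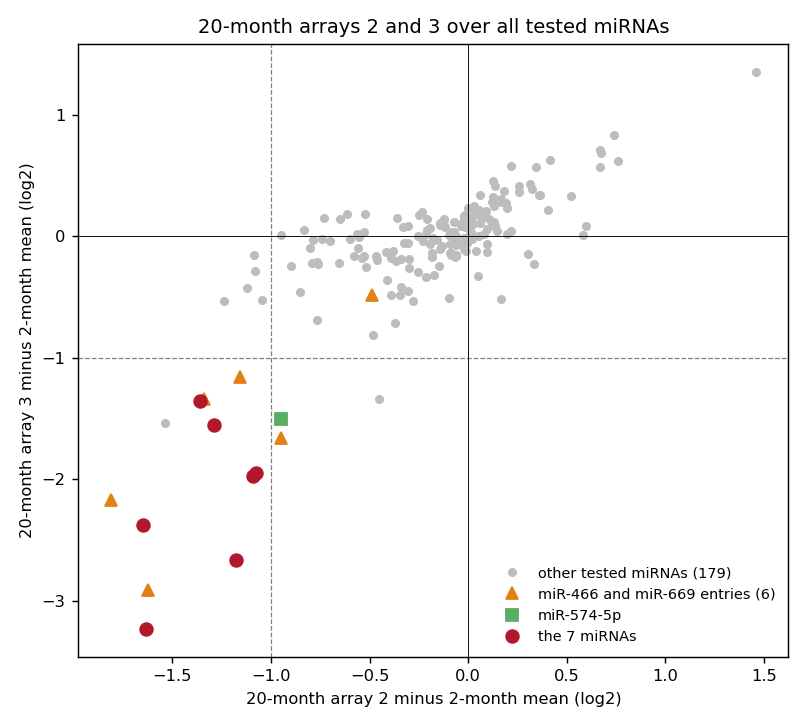
Difference from the 2-month mean (log2) on 20-month array 2 (x axis) against 20-month array 3 (y axis), 1 point for each of the 193 tested miRNAs, with dashed lines at -1. The 7 miRNAs lie in the lower left with most of the miR-466 and miR-669 entries and miR-574-5p, away from most of the others. miR-551b-3p, drawn with the others, lies there too at -1.54 on both arrays.

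The 7 miRNAs were read by 16 probes. On aged array 3 as on aged array 2, 16 of 16 lay below aged array 1 and each young array after scaling. Before scaling, 16 of 16 lay below each young array on either of them. The miRNAs were chosen for being low there, so the probe counts given here restate the choice. Of all tested miRNAs, 15.5% (30 of 193) lay below each array of row 1 on both aged arrays 2 and 3. For all 16 probes the brightest kept spot on aged array 3 was dimmer than the dimmest kept spot on any array of row 1. For 1 of the miR-3082-5p probes these were 197 and 439 intensity units. The share of all probes on the array with such a gap is not given. The spots of 1 array are repeats within it, so nothing is read from the spot count. On aged array 3, 12 of the 16 probes lay within 2 SD of the mean of the negative control spots or below, and on aged array 2 none did (0 of 16). In the upper rows of spots and in the lower rows alike, 16 of 16 probes were lower on aged arrays 2 and 3 than the young mean. The size is not given, because 10 of the 16 probes lay at the floor on aged array 2 and 12 on aged array 3.

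Whether aged array 2 was 2-fold lower depended on the scaling, while aged array 3 stayed past that limit under each scaling tried. Before any scaling the 7 miRNAs stood at 51.1% (miR-32-3p) to 76.7% (miR-1187) of the young mean on aged array 2 and at 6.14% (miR-6348) to 26.2% (miR-1187) on aged array 3. On aged array 1 they stood at 87.4% (miR-32-3p) to 127% (miR-1196-5p). Aged array 2 had the highest 75th percentile over the probes detected on all arrays, so dividing by that percentile lowered its values. With the 75th percentile over all probes in its place, the 7 miRNAs stood at -0.74 to -0.16 on aged array 2 and at -3.09 to -1.22 on aged array 3. Control probes named dmr had geometric mean intensities of 6770, 7135 and 6447 on the aged arrays, against 6570 to 7273 on the young. Scaled to these controls, an alternative chosen after the data were seen, the 7 miRNAs stood at -0.997 to -0.42 on aged array 2 and at -3.18 to -1.30 on aged array 3. Under that scaling and without scaling, none of the 7 (0 of 7) was 2-fold lower on array 2 and all 7 were on array 3. The share of all tested miRNAs past that limit is not given for these 2 settings, so the counts only describe the 7. The median age difference of all tested miRNAs was 0.15 with the control probes and 0.12 without scaling, against -0.08 in the main setting. Normexp background correction, which adds an offset of 50 and so compresses dim signals, gave -0.99 to -0.80 on array 2 and -1.33 to -0.43 on array 3.

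**Figure D3:**
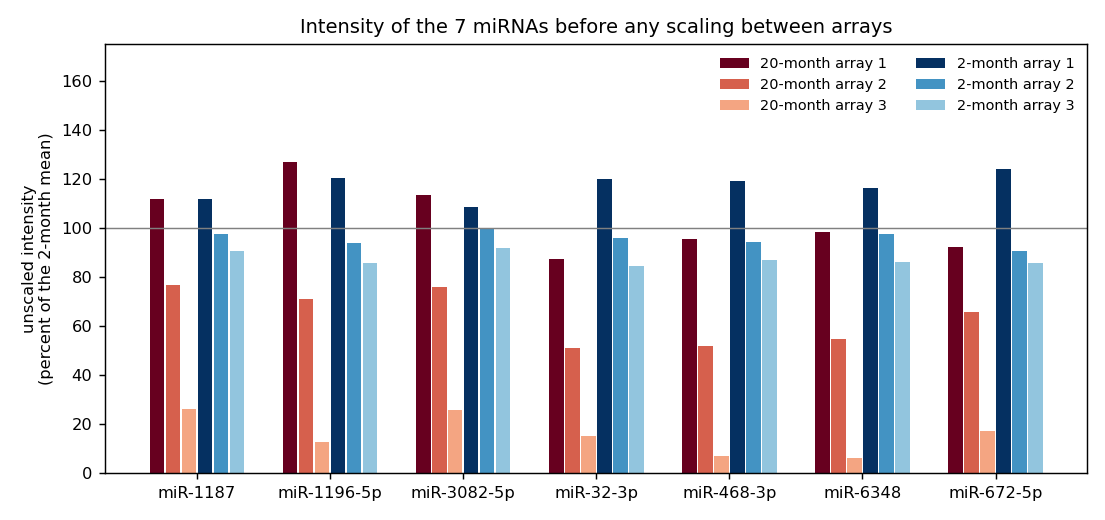
Unscaled intensity of each of the 7 miRNAs (x axis) as a percent of its 2-month mean (y axis), 1 bar per array with the 20-month arrays on the left of each set. Aged array 3 stands at 6.14 to 26.2%, aged array 2 at 51.1 to 76.7%, and aged array 1 at 87.4 to 127%.

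**Figure D4:**
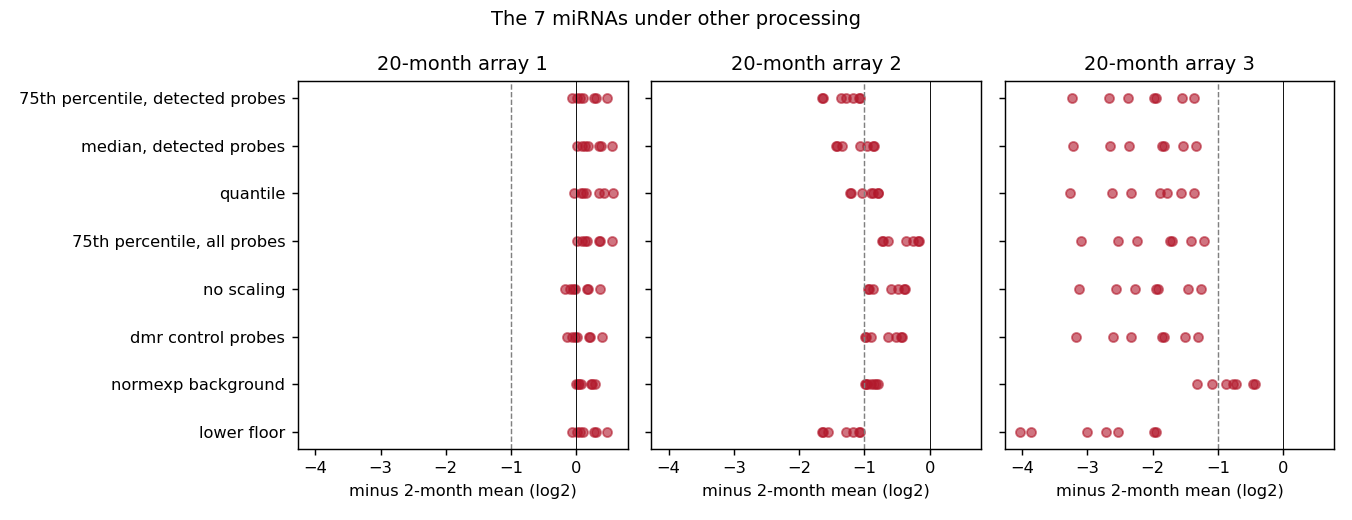
Difference of each of the 7 miRNAs from the 2-month mean (log2, x axis) on 20-month arrays 1, 2 and 3 (panels), 1 point per miRNA, under 8 ways of processing (y axis), with the 2-fold line dashed. Array 1 lies at -0.18 to 0.56, array 2 falls on either side of the 2-fold line depending on the setting, and on array 3 all 7 lie past it except with normexp, where 2 do.

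In the authors' deposited table, 5 of the 7 miRNAs were listed at -9.20 on aged array 3. That value stands for a total signal of 0.1, which the scanner software gives to an undetected miRNA. The other two had values there of -0.61 (miR-1187) and 0.02 (miR-3082-5p) in the authors' deposited table. For aged array 2 the authors' deposited table gave 0.36 for miR-1187 and -3.54 for miR-6348, against 1.16 to 1.27 and -1.48 to -1.23 on young arrays.

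Outside the 7 chosen miRNAs, 2 tested miRNAs with a sequence held GUGUGU, miR-574-5p and miR-669n. The motif was picked from the sequences of the chosen miRNAs, so counts that include these restate the choice. miR-574-5p, with the longest stretch (13 bases), was at 0.61, -0.71 and -1.26 on aged arrays 1 to 3, against 0.10, 0.34 and 0.30 on the young arrays. It was well above background throughout. miR-669n, with 8 bases, was at -2.18, -3.81 and -5.10 on the aged arrays, against -1.998, -2.22 and -2.33 on the young. By the 2-fold limit on both aged array 2 and aged array 3, miR-669n was low and miR-574-5p, at -0.95 on array 2, was not. With the 5 chosen ones this made 6 of 7 miRNAs with the motif, against 1 of 148 without it and 6.22% of all tested. The 1 without it was miR-551b-3p, which was low on aged array 1 too (-1.41, -1.54 and -1.54). The counts with and without the motif leave out tested miRNAs that have no sequence. Of the 11 miRNAs that met the rule of the 7, 6 had a sequence. Those left out were miR-1196-5p, miR-468-3p, miR-466h-5p, miR-466m-5p and miR-669e-5p, all low on both aged arrays 2 and 3. By the looser limit of lying below each array of row 1 on both arrays, the counts were 7 of 7 with the motif and 11 of 148 without it, against 15.5% of all tested. None of the 7 miRNAs with the motif (0 of 7) passed the limma threshold between ages, where 7.77% of all tested did. At an unadjusted limma p under 0.05, 1 of them, miR-32-3p, did, where 25.4% of all tested did.

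By the length of the longest alternating stretch, the 25 tested miRNAs with 4 bases had a median difference of -0.06 on aged array 2 and 0.02 on aged array 3. The 59 with 3 bases had medians of -0.02 and 0.02, and the 61 with 2 or fewer had medians of -0.19 and 0.01. The 2 with 5 bases were miR-210-3p and miR-450a-5p, at -0.54 and -0.37 on array 2 and at -0.18 and -0.71 on array 3. Of the 8 with 6 bases or more, 5 were among the chosen miRNAs, and the other three are given singly. miR-574-5p stood at -0.95 and -1.50 on arrays 2 and 3, and miR-669n at -1.63 and -2.91. let-7b-5p, whose 6 bases do not spell GUGUGU, stood at 0.12 and 0.45. The 19 other tested miRNAs with at least 68.2% G and U and a stretch under 6 bases had medians of 0.07 on array 2 and 0.11 on array 3. Their ranges were -0.80 to 0.74 and -0.71 to 0.83.

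**Figure D5:**
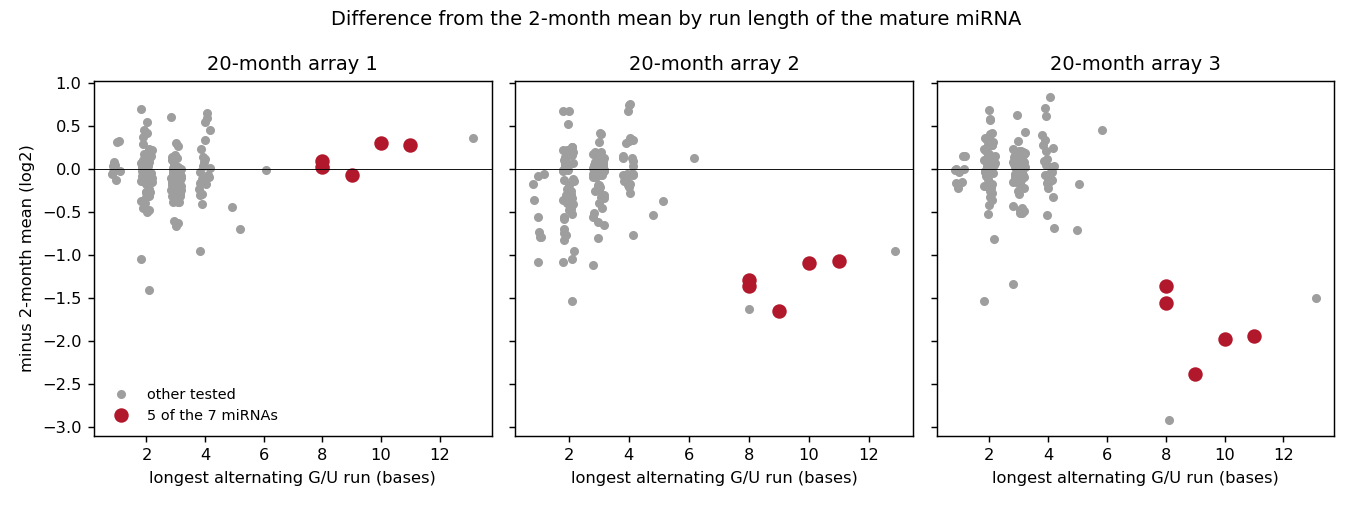
Difference from the 2-month mean (log2, y axis) on 20-month arrays 1, 2 and 3 (panels) by the longest alternating G and U stretch of the mature miRNA in bases (x axis, other points shifted slightly sideways), 1 point for each of 155 tested miRNAs with a RefSeq sequence. The 7 miRNAs with 8 bases or more, 5 of them chosen for being low on arrays 2 and 3, lie in the lower part of those panels. miR-551b-3p, with 2 bases, lies among them at -1.54 on both arrays. With 3 bases the lowest value is -1.12 on array 2 and -1.34 on array 3.

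The miRNAs most like the 7 in profile, by Pearson correlation over the 6 arrays with the mean of their centred profiles, were miR-669n (0.996), miR-466i-5p (0.984), miR-466h-5p (0.981), miR-574-5p (0.979) and miR-669e-5p (0.953). miR-466i-5p was at 2.48, 1.17 and 0.45 on aged arrays 1 to 3, against 1.99, 2.21 and 2.14 on young arrays. It was well above background on every array. In all, 61 array entries were named miR-297, miR-466, miR-467 or miR-669, names shared by repeat-like miRNAs in an intron of Sfmbt2. The 6 of them that were tested stood at -0.06 to 0.36 on aged array 1, at -1.81 to -0.49 on array 2 and at -2.91 to -0.49 on array 3. The name alone does not give the place, since Mir669n is at chr3:115979902-115979955 (plus strand) and overlapped Slc30a7.

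The other arms of the hairpins could not be compared. Entries for miR-32-5p, miR-468-5p, miR-672-3p, miR-1196-3p and miR-3082-3p were on the array, and none of the 5 (0 of 5) was well above background on any of the 6 arrays. Their summed intensities ranged from -10.8 to 47.4. For miR-32 the 3p entry was thus well above background on aged array 1, aged array 2 and the young arrays, and the 5p entry was not. Which arm was the more abundant is not read from this, because probes differ in their binding.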

How the data were processed

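Kidney miRNAs were measured on 6 single-colour Agilent arrays of design 046065, 3 of aged and 3 of young kidney, grouped by the sample titles. Per the file headers, Feature Extraction 11.5.1.1 made the deposited spot intensity (background-subtracted, not scaled between arrays) and the flags for outlier, saturated (0 spots) and well above background. The build of the design was mm9, per the file headers, and the RefSeq sequences are of GRCm38.p6. The authors' deposited table holds log2 values, which matched the total signal that the scanner software gives each miRNA, shifted by 1 constant within an array. How the constant was chosen is unknown, so the table's scale and direction are known and its centring is not.

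From these values, outlier spots were left out, and a miRNA was tested where a probe was well above background on all 3 arrays of a group. limma 3.58.1 in R 4.3.3 compared ages (lmFit and eBayes, Benjamini-Hochberg over 193 miRNAs). The procedure was tested on simulated data. The 7 miRNAs, the motif and the lists were chosen with earlier results of these data known. The named miRNAs were the 7, their opposite arms, the 5 nearest in profile, the 3 nearest to the threshold, the motif and repeat-like lists and the marker lists. Others (miR-551b-3p, let-7b-5p, miR-210-3p and miR-450a-5p) were named after their values were seen. Alternatives changed the scaling, background, floor, filter, probe summary, block and arrays used. Files lack the mean spot signal, so normexp used spot medians. Same-numbered arrays deviated together at r = 0.12, -0.58 and 0.31. With 3 arrays per group these values cannot exclude a pairing. The labels name none, so the main fit did not pair arrays.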

Additional observations from a re-analysis of the deposited data

How the results depend on the processing

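All 7 miRNAs met their defining rule with outlier spots kept and with the scanner software's total signal. Both blocks, no detection filter, a lower floor and leaving out 1 aged array could not undo the rule, and it was met by 7 to 7 with 1 array left out. The rule was met by 4 with the median of detected probes, the brightest probe alone or the authors' table, by 3 with quantile normalization, by 2 (of 2 tested) with detection on all 6 arrays, and by 0 with no scaling, normexp, the dmr control probes or the 75th percentile over all probes. Their median age difference was -0.94, was -1.27 with a lower floor and ranged from -1.53 to -0.63 with 1 array left out. It was -1.70 with the total signal and -3.21 in the authors' table, whose undetected entries are far below the floor used here. It was -0.84 with the median of detected probes, -0.82 with the brightest probe and -0.81 with quantile normalization. It was -0.73 with the dmr control probes, -0.72 without scaling, and -0.57 with normexp or the 75th percentile over all probes. With slide row as a block it was 0.10, with miR-1187 at 0.28, miR-1196-5p at 0.47, miR-3082-5p at 0.30, miR-468-3p at 0.056, miR-6348 at 0.10 and miR-672-5p at 0.016, while miR-32-3p stayed negative at -0.07, since that fit rests on aged array 1. Of the 7, 2 passed the limma threshold when all probes gave the 75th percentile. In that setting 12 of all 193 tested did (7 higher, 5 lower). With 1 array left out, 0 to 7 of the 7 passed (7 without aged array 1), against 5 to 39 of all tested.

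Of all tested miRNAs 15 passed by limma (8 higher, 7 lower). The count was 2 without scaling and with the control probes, 4 with normexp, 6 with no detection filter, 8 with the total signal, 5 with slide row as a block and 3 with the replicate block, where none of the 7 miRNAs passed. Leaving out 1 array gave 5 to 39: 39 without aged array 1, 9 without aged array 2, 23 without aged array 3, and 6, 5 and 8 without young arrays 1, 2 and 3. The split of higher and lower was 18 and 3 with the median of detected probes, 13 and 1 with quantile normalization and 10 and 0 in the authors' table. The median age difference of all tested miRNAs was -0.08 in the main setting. It was 0.06 with the median of detected probes, 0.001 with quantile normalization and 0.03 in the authors' table. With the 75th percentile over all probes it was 0.33, with 7 higher and 5 lower. The cause of these changes was not tested. Of the aged arrays, 1 of 3 correlated best with the young array of its own number. Signal near background limits the 5 miRNAs that reach the floor on aged array 3.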

Other observations

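Besides the 7 tested miRNAs with GUGUGU, 8 array entries held the motif and were too dim to be tested. None was well above background on more than 1 array. miR-294-3p, known from mouse embryonic stem cells, had unscaled intensities of 46.3, 35.2 and 9.95 on aged arrays 1 to 3, against 78.5, 55.4 and 49.9 on the young arrays. For miR-539-5p they were 34.2, 25.1 and 10.8, against 46.9, 41.4 and 35.9. miR-466j, the single one of them to be well above background on an array, had 43.0, 18.2 and -3.92, against 66.8, 43.3 and 37.6. At such intensities the order of the arrays is not read.

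The muscle miRNA miR-206-3p, whose mature sequence holds the motif too, had 23.3, 10.5 and 8.25 on the aged arrays, against 27.9, 21.1 and 17.2 on the young, and miR-3097-5p had 20.1, 8.75 and -0.33, against 20.8, 15.3 and 15.0. miR-466k, miR-1197-5p and miR-496a-5p had intensities under 0 on each array. None of these differences was tested.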
